A study of Saccharomyces cerevisiae with 312 samples.

Results

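The RPN10 query is 1 of 154 query mutations in a series of genetic interaction mapping screens in budding yeast, and it was screened on 2 of the 312 arrays. Its arrays were chosen by their titles, which name RPN10 (YHR200W), and every other array served only for comparison. In this method a query mutation, here a deletion, is combined by mating with a collection of barcoded strains. Haploid cells that carry both mutations are selected, and the barcodes of the pool are then read on an array. Per the titles, some other queries carried a DAMP or TETO2 allele in place of a deletion. The RPN10 population held haploid cells derived from BY4742 and BY4741 with RPN10 deleted, each also altered in a pool gene. The reference on the same array was a like pool that carried a deletion of YEL068C in place of RPN10, so both populations carried the pool alterations and a selected query marker. Per the labels, the selected pools grew for 18 generations in G418 and nourseothricin, the RPN10 population was labelled with Cy3 and the YEL068C population with Cy5. A pool member is called a strain below and named by its altered gene. The pool holds strains of essential genes as well as of dispensable ones, and what alteration an essential gene carries was not stated in the labels.

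RPN10 encodes a ubiquitin receptor of the 26S proteasome, the protease that degrades ubiquitin-tagged proteins. The 20S core holds the proteolytic sites, and the 19S regulatory particle, made of a base and a lid, captures, unfolds and deubiquitinates substrates before they enter the core. Ubiquitin chains reach the particle through built-in receptors, among them Rpn10 and Rpn13, and through shuttle proteins such as Rad23, Dsk2 and Ddi1, which bind a chain at one end and the proteasome at the other. Yeast cells without RPN10 are viable.

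The values are log2 ratios of the RPN10 population over the YEL068C population, averaged over the array features of a strain and centred on the median of each array. The labels state neither the log base nor the sign of the deposited ratios. Base 2 was taken, and the sign was read from linkage, because a strain altered near the query locus can seldom inherit both markers. Strains 1 to 5 genes from RPN10 had a median of -4.65 on screen 1 (4 strains) and -6.43 on screen 2 (3 strains). At 6 to 25 genes the medians were -2.03 and -2.11, at 26 to 50 genes -0.91 and -1.13, at 51 to 100 genes -0.37 and -0.53, and at 101 to 200 genes -0.06 and -0.21. Around the YEL068C locus the sign was opposite, with medians of 5.69 and 4.31 within 5 genes (6 strains on each screen) and 1.14 and 1.12 at 6 to 25 genes. A negative value was therefore read as fewer cells in the RPN10 population than in the reference, and every direction below would exchange if the sign were turned. Growth itself was not measured, and fewer cells through slower growth, poorer spore recovery or poorer selection cannot be told apart.

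**Figure D1:**
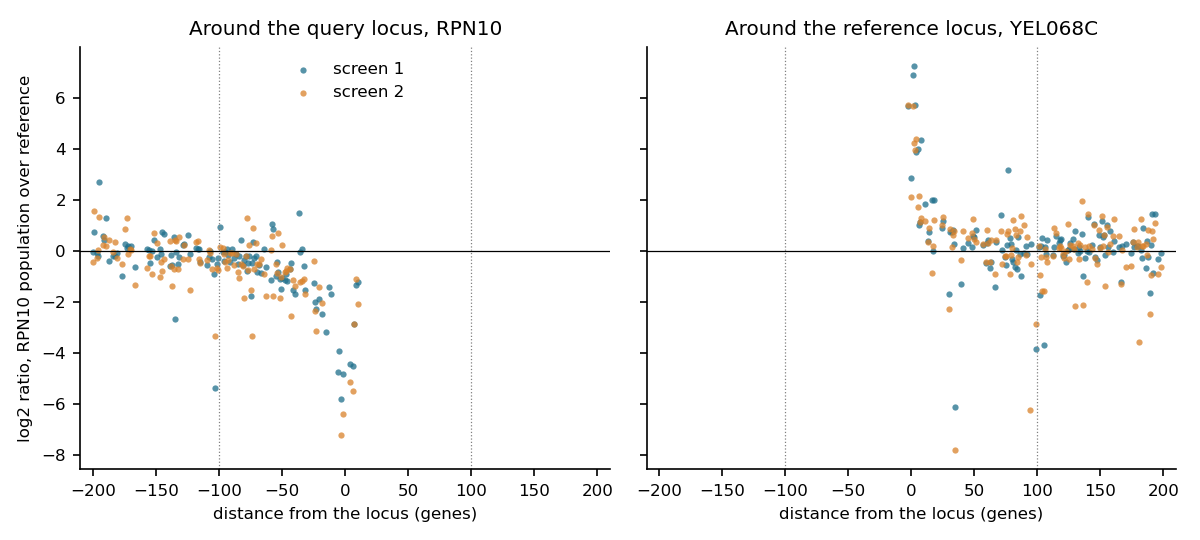
Log2 ratio of each strain within 200 genes of the query locus RPN10 (left) and of the reference locus YEL068C (right) against its distance in genes, with 1 point per strain and screen and dotted lines at 100 genes. The depletion around RPN10 and the gain around YEL068C both fade with distance, and strains within 100 genes of RPN10 were left out of the tests.

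The screens measured 4087 strains (screen 1) and 4046 strains (screen 2), and the number of arrays limits the precision. The strains' SD was 1.13 on screen 1 and 1.17 on screen 2, against a median of 0.67 over the 304 screens of the series, and 17 screens were wider than the narrower RPN10 screen. Strains with 2 features gave an r between features of 0.937 on screen 1 (2454 strains) and 0.868 on screen 2 (2408 strains). Across strains the 2 screens correlated with an r of 0.478, and among strains that were not called with -0.06. Leaving out strains called on the mean of both screens itself lowers the second r. These correlations are over strains that share an array. The labels give the screens different reference pools but do not state whether they came from separate crosses, so the p-values reflect no more than the spread among screens, which may be technical.

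Of 3955 strains tested, 309 were lower (7.81%) and 120 were higher (3.03%) in the RPN10 population than in the reference. Strains were called at a mean of at least 1 in size with an adjusted p below 0.05, from a limma fit that pooled the spread of a strain over all queries. Over the other queries the shares were 2.29% and 1.2%. Per the labels, 59 of the 312 arrays had the YEL068C reference and 252 had a reference mix of several deletions. Comparisons with the other queries as a whole therefore mix reference genotypes. RPN10 ranked 11th of 140 queries for lower strains, where the median query had 34.5, and 14th for higher strains, where the median was 29. Of the 429 called strains, 422 had the same sign on both screens, and 219 lower and 59 higher ones were past 1 on both (5.54% and 1.49% of the strains tested). A call rests on the mean of these same screens, so agreement in sign among called strains is largely fixed by the selection. When the spread came from the 2 RPN10 screens alone, limma called 0 strains, with 487 at an unadjusted p under 0.05, so the calls rest on a spread learned from other queries. The adjusted p-values below use that pooled spread and not the SD of the 2 RPN10 screens printed beside a mean. With quantile normalization between arrays, 133 strains were lower and 28 higher.

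**Figure D2:**
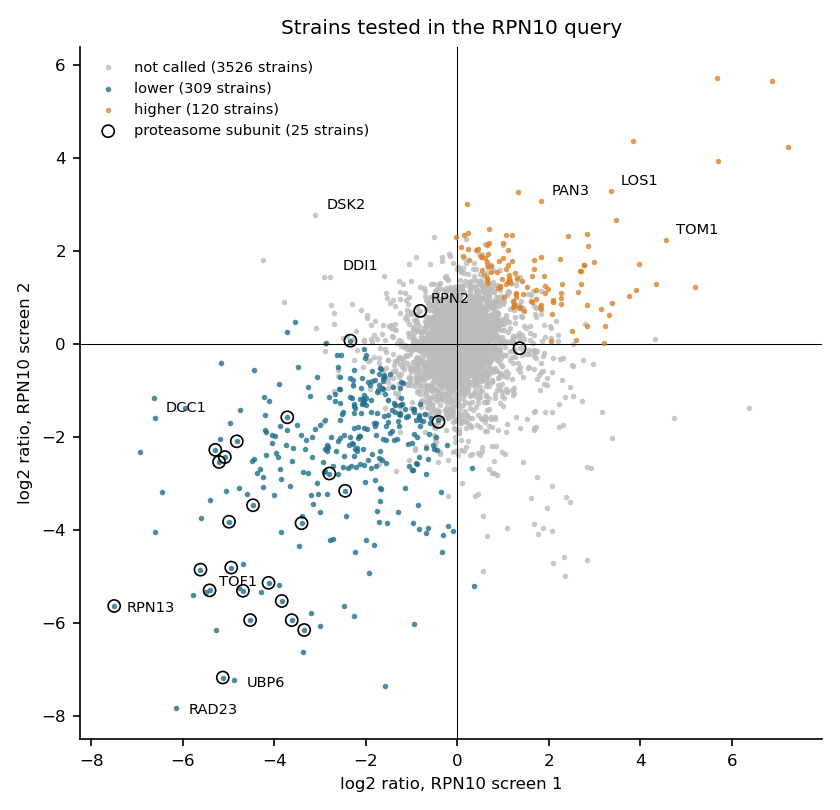
Log2 ratio on RPN10 screen 1 (horizontal) against screen 2 (vertical), 1 point per strain, coloured by the call, with circles around proteasome subunit strains. RPN13, RAD23 and UBP6 lie far below 0 on both screens, whereas DSK2 and DDI1 lie on opposite sides of 0.

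The receptors were the first group examined, because they carry the same task as the deleted gene. Of 5 receptor and shuttle strains tested, 3 were lower, 0 higher and 2 not called, and their median was -3.78, against 0.02 over all strains. RPN13, the receptor docked on the base subunit Rpn2, stood at -7.50 and -5.63 on the 2 screens, a mean of -6.56 ± 1.32 (SD, n = 2; limma adjusted p 5.31e-55). The SD of 1.32 is wider than the pooled spread behind that p-value, where the median residual SD over strains was 0.382. Both features of RPN13 were below -5 on both screens. RAD23, the shuttle that also acts in DNA repair, stood at -6.15 and -7.82, a mean of -6.99 ± 1.18 (adjusted p 1.60e-32). The RAD23 strain lies 35 genes from YEL068C, where strains at 26 to 100 genes had medians of 0.12 on screen 1 and 0.32 on screen 2. SEM1, a small lid subunit reported to bind ubiquitin, stood at -5.29 and -2.27, a mean of -3.78 ± 2.13, and was not called on screen 2 alone.

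The other shuttles gave no single direction. DSK2 stood at -3.12 on screen 1 and 2.78 on screen 2, and its pair of features differed little within each screen, at -3.08 and -3.15 on screen 1 and at 2.77 and 2.79 on screen 2. DDI1 stood at -2.78 on screen 1 and 1.45 on screen 2. Neither was called (adjusted p 0.95 for DSK2 and 0.15 for DDI1). Taken alone, screen 1 called all 5 receptor strains lower, and screen 2 called 2 lower and 2 higher. Nucleotide excision repair, in which Rad23 partners Rad4, served as a comparison. Of its 13 strains 0 were called, the median was -0.02, and RAD4 stood at 0.41 and 0.29. Over all strains 7.81% were lower and 3.03% higher, so 0 calls in so short a list says little. Peroxisome import, a process with no stated tie to RPN10, was not free of calls: 2 of 7 strains were lower, PEX13 (-0.84 and -3.98) and PEX10 (-0.19 and -3.91), with a median of -0.69. Under a block for the reference pool 4 of these 7 were lower, and on screen 1 alone 0 of 15.

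Strains altered in the proteasome itself were low as a body. Of 32 listed subunits of the core, base and lid, 25 were tested, and 22 of these were lower, 0 higher and 3 not called, with a median of -3.96. On screen 2 alone and on screen 1 alone, 22 of 26 were lower each time. Of 9 core strains 8 were lower, with a median of -4.68. PRE3, the caspase-like catalytic subunit, stood at -5.12 and -7.17, a mean of -6.15 ± 1.45 (adjusted p 6.05e-18), and PRE2, the chymotrypsin-like one, at -3.62 and -5.94. The alpha-ring strains SCL1 (-4.68 and -5.30), PRE10 (-4.94 and -4.80) and PRE5 (-3.84 and -5.52) lay in the same range. PRE6, another alpha-ring gene, stood at -0.41 and -1.67 and was not called.

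Of 8 base strains 7 were lower, with a median of -3.92, and RPN13, counted with the receptors, is one of them, as SEM1 is one of the lid strains below. All 6 ATPases of the base, RPT1 to RPT6, were lower, with means between -5.23 (RPT5) and -3.45 (RPT2) and every single screen value at or below -2.09. RPN2, the scaffold on which Rpn13 sits, stood at -0.81 and 0.72 and was not called. Of 8 lid strains 7 were lower, with a median of -3.28. RPN12 stood at -5.41 and -5.30, RPN6 at -4.53 and -5.93, and RPN11, the deubiquitinase that cuts chains from substrates as they enter, at -3.34 and -6.15. RPN9 was called at -1.13 only through screen 1, with -2.33 there and 0.08 on screen 2, and it was not called once the reference pool entered the fit as a block (adjusted p 0.17). RPN8 stood at 1.36 and -0.08 and was not called.

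Factors that build or bind the proteasome behaved unevenly. Of 14 such strains 3 were lower and 0 higher, with a median of -0.45, whereas 6 of 15 were lower on screen 2 alone and 2 of 14 on screen 1 alone. UBP6, a deubiquitinase docked on the base, stood at -4.87 and -7.23, a mean of -6.05 ± 1.67 (adjusted p 4.62e-16). POC4, which helps to assemble the alpha ring of the core, stood at -5.78 and -5.40, a mean of -5.59 ± 0.27 (adjusted p 1.42e-13). These were the largest changes of the list, and BLM10, a core activator, followed at -0.84 and -2.42 and was not called on screen 1 alone. The base chaperones NAS2 (0.32 and -2.36), NAS6 (0.52 and 0.68) and RPN14 (0.32 and 0.71) and the chain extender HUL5 (-0.79 and -0.40) were not called. RPN4, the transcription factor that keeps proteasome genes expressed, was measured on screen 2 only, at -10.9, and had no test.

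**Figure D3:**
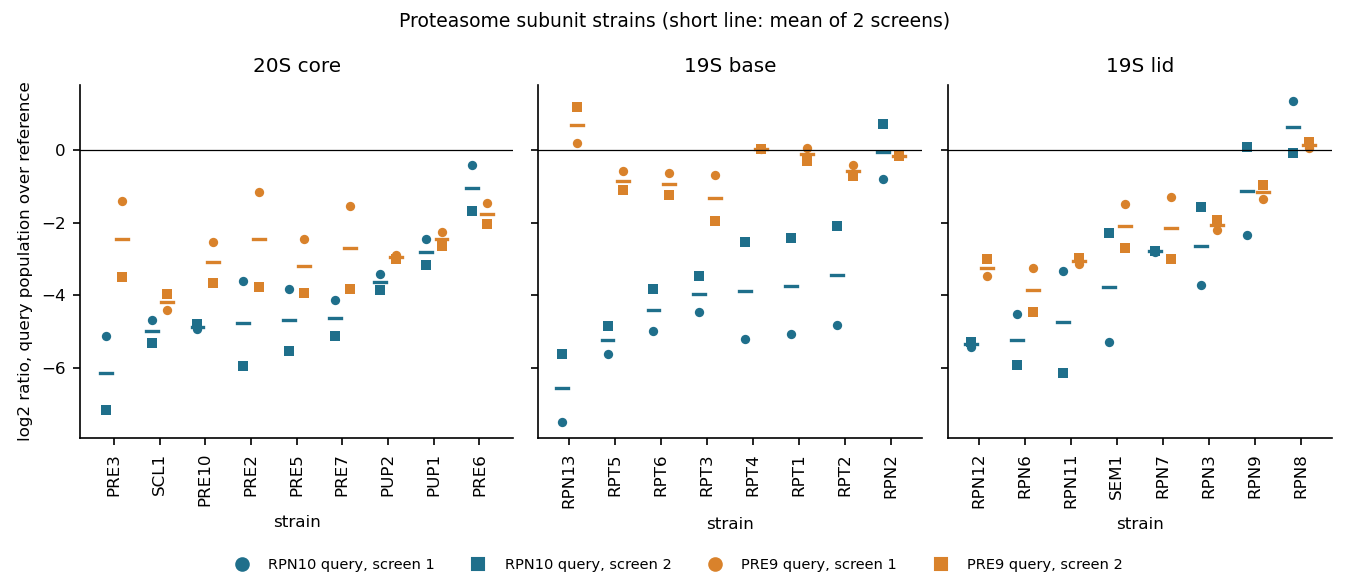
Log2 ratio of each measured proteasome subunit strain in the RPN10 query (left of each pair) and in the PRE9 query (right of each pair), with circles for screen 1, squares for screen 2 and a short line at their mean. Most core and lid strains were low in both queries, whereas the RPT strains of the base lay between -5.61 and -2.09 in the RPN10 query and between -1.97 and 0.05 in the PRE9 query.

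Upstream of the proteasome, ubiquitin transfer and supply also changed. Of 9 ubiquitin-conjugating strains 5 were lower and 0 higher, with a median of -1.16. On screen 2 alone 2 of 9 were lower with a median of 0.03, and with quantile normalization 2 were. UBC4, a conjugating enzyme for short-lived and abnormal proteins, stood at -5.28 and -6.14, a mean of -5.71 ± 0.61 (adjusted p 2.82e-12). Its features disagreed on screen 1, at -7.26, -1.43 and -7.15, and lay between -6.80 and -5.74 on screen 2. Its close paralog UBC5 stood at 0.26 and 0.39 and was not called. CDC34, which serves the SCF ligases, stood at -2.90 and -2.73 and was lower in 0 of the other queries in which it was tested. UBC1 was called at -1.42 through screen 1, with -2.87 there and 0.03 on screen 2.

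Of 11 ubiquitin supply strains, a list that shares UBP6 with the one above, 5 were lower and 2 higher, against 3 lower on either screen alone and 2 with quantile normalization. UBI4, the polyubiquitin gene, was one of those that rose, at 2.99 and 1.76, a mean of 2.38 ± 0.87 (adjusted p 6.47e-07), and the ubiquitin protease UBP1 was the other, at 0.22 and 3.03, not called on screen 1 alone. Those that fell were UBP6, DOA1 (-3.88 and -2.69), DOA4 (-2.21 and -2.63), YUH1 (-2.57 and -1.27) and UBP8 (-2.17 and -2.01). DOA4, which recovers ubiquitin at endosomes, was not called on either screen alone, nor was UBP8, the protease of the SAGA coactivator.

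Among 10 strains of Cdc48, the unfoldase that hands substrates to the proteasome, and its cofactors, 4 were lower and 1 higher, and on screen 2 alone 2 were lower. UBX2, the adaptor in the membrane of the endoplasmic reticulum, stood at -5.19 and -2.05, and DOA1, counted above, was lower. UBX4 (-5.16 and -0.40) and UBX5 (-3.06 and -0.70) were called mainly through screen 1. Both were below 0 but not past -1 on screen 2, and not called on that screen alone. OTU1, a deubiquitinase bound to Cdc48, stood at 1.83 and 1.89 and was higher (adjusted p 2.15e-11). CDC48 itself (-0.64 and 0.91) and UFD1 (-0.21 and 0.48) were not called. Of 12 strains of endoplasmic reticulum-associated degradation, UBX2 was the only one called, and of 17 cytosolic chaperone strains only SSA1 was (-0.23 and -2.18, not called on screen 1 alone). Both counts lie near the share over all strains, of which 7.81% were lower.

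Among 13 ubiquitin ligase strains, 3 were lower and 2 higher, against 1 and 0 on screen 2 alone and 0 and 1 with quantile normalization. TOM1, a HECT-type ligase, stood at 4.56 and 2.24, a mean of 3.40 ± 1.64 (adjusted p 7.17e-07), the highest strain that was past 1 on both screens and outside the YEL068C region. It was not called on screen 2 alone. UFD4, which acts on ubiquitin-fusion substrates, stood at -2.25 and -1.29. SAN1 (-1.68 and -0.51), RAD5 (-1.61 and -0.78) and ASI3 (1.35 and 0.77) were called as well, and none of the 3 was called on screen 2 alone. Under the pool block SAN1 (adjusted p 0.23) and RAD5 (0.125) were not called.

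The lists of chromosome maintenance differed from one another. Of 7 recombination strains 2 were lower, RAD59 (-1.06 and -2.61) and SRS2 (-2.05 and -1.17), with a median of -0.54, and of 6 tubulin strains 0 were called. The shares over all strains were 7.81% lower and 3.03% higher. Of 17 listed replication fork and cohesion strains only 5 were tested, and 4 of these were lower, with a median of -3.89. TOF1, which with Csm3 steadies stalled forks, stood at -5.49 and -5.34, a mean of -5.41 ± 0.11 (adjusted p 1.13e-42), and CSM3 at -3.45 and -4.34. ELG1, part of a clamp unloader, stood at -3.16 and -3.43. These 3 strains had close values on both screens, whereas DCC1 stood at -6.61 and -1.59 and was not called on screen 2 alone. The checkpoint kinase adaptor MRC1 had a value on screen 1 only, at -3.19, and CHL1, a cohesion helicase, only there too, at -5.54, and both are named with their values known.

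Of 14 spindle checkpoint, kinetochore and mitotic exit strains, 8 were lower and 0 higher, with a median of -1.54. LTE1, which promotes exit from mitosis, stood at -4.78 and -5.24, a mean of -5.01 ± 0.33 (adjusted p 1.50e-33). The kinetochore strains MCM21 (-3.32 and -2.26), CTF19 (-3.49 and -1.73), CHL4 (-1.78 and -1.96) and IML3 (-1.31 and -2.03) were all lower. BIM1, which binds microtubule ends, stood at -3.86 and -2.90 and lies 99 genes from YEL068C. MAD1 (-2.09 and -0.72) was not called on screen 2 alone. CIN8, a mitotic motor, stood at 1.14 and 1.12 and was not called (adjusted p 0.54). It lies 7 genes from YEL068C, where strains at 6 to 25 genes also had medians of 1.14 and 1.12. With quantile normalization 4 of the 14 were lower.

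Of 9 strains of the Rpd3 deacetylase and Set2 complexes 5 were lower, with a median of -2.97. RXT2 (-3.37 and -6.62), PHO23 (-3.01 and -6.05), RXT3 (-3.98 and -1.97), UME1 (-3.61 and -2.51) and CTI6 (-6.62 and -1.16) are subunits or partners of the large Rpd3 complex, and CTI6 was not called on screen 2 alone. EAF3, shared with other chromatin complexes, stood at 0.53 and 0.28. SAP30 and SDS3, of the same large complex, were measured on screen 2 only, at -8.63 and -7.36, and are named with those values known.

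Strains of membrane traffic to the vacuole were also low. Of 17 strains of the ESCRT complexes, which sort ubiquitinated membrane proteins into endosomes, 15 were lower and 0 higher, with a median of -2.53. VPS4, the ATPase that recycles the complexes, stood at -4.60 and -3.21, and VPS25 at -4.49 and -2.50. The count depended on both screens and on the scaling: 7 of 17 were lower on screen 2 alone, 11 on screen 1 alone, and 6 with quantile normalization. Of 14 strains of the retromer, sorting nexins and Golgi GTPases 8 were lower, among them VPS5 (-4.76 and -3.10) and SNX3 (-3.39 and -3.69), and on screen 2 alone 4 were. Of 17 autophagy strains 0 were called, with a median of 0.22, against 7.81% lower and 3.03% higher over all strains.

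Among 11 sphingolipid and ergosterol strains 5 were lower and 1 higher. ELO3, which elongates fatty acids for ceramides, stood at -6.61 and -4.04, a mean of -5.32 ± 1.81 (adjusted p 2.35e-08), and CSG2 at -2.92 and -2.75. YPK1, a kinase that controls sphingolipid synthesis, was not on that list and stood at -4.28 and -5.33. SEC66, of the protein translocation channel, stood at -6.46 and -3.17, and BET5, of the TRAPP vesicle tether, at -4.68 and -4.72. Among all strains of the query, these 3 fell within the 20 lowest that were past 1 on both screens.

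**Figure D4:**
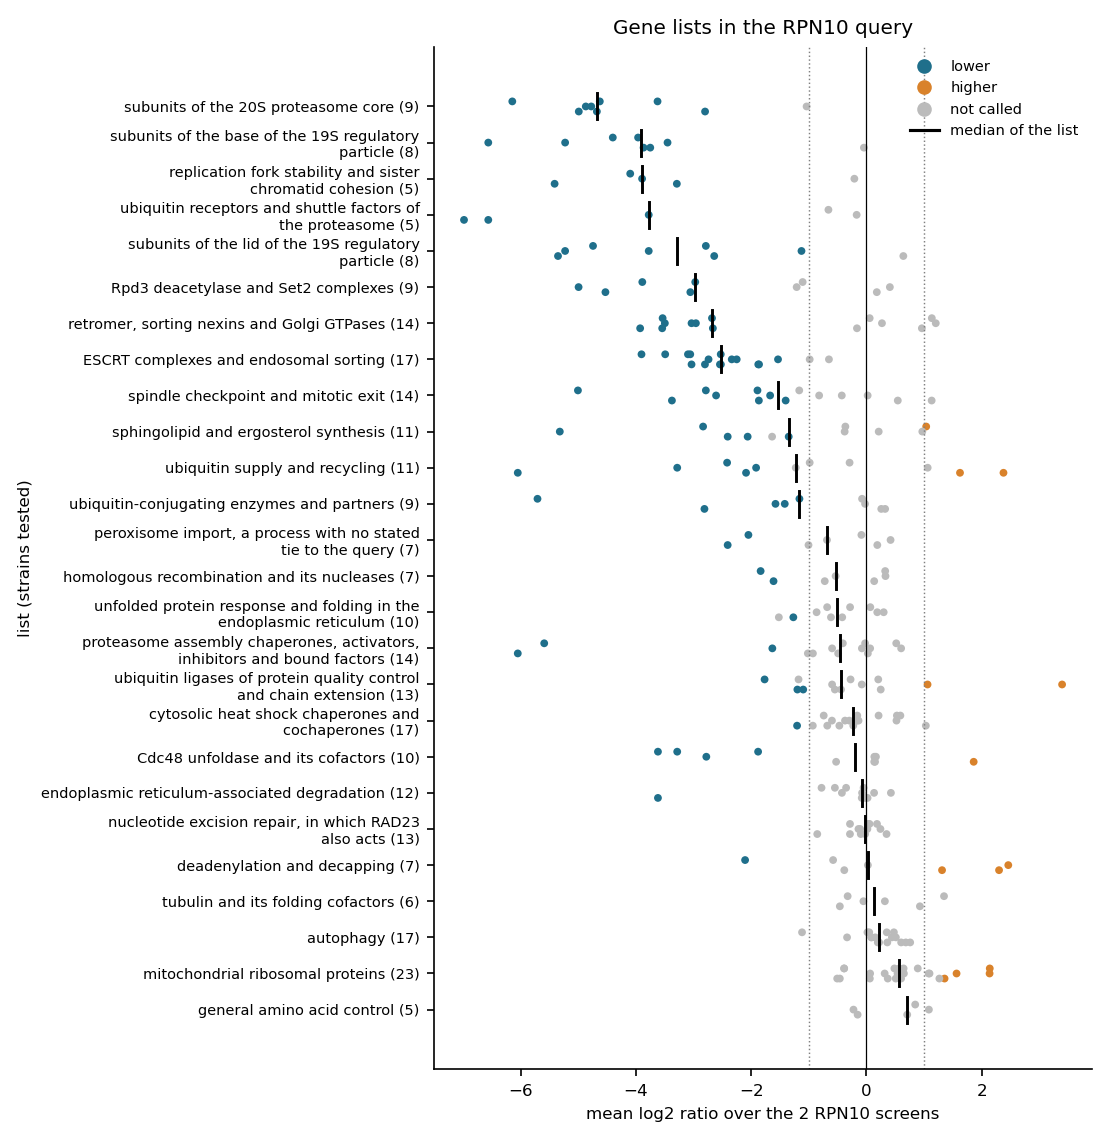
Mean log2 ratio over the 2 RPN10 screens of each strain, by list, ordered by the median of the list (vertical line), with dotted lines at -1 and 1. Lists with at least 5 tested strains are shown, apart from the groups put together after their values were seen. The lists shown were chosen with earlier results of these data known. The core, base, lid, fork, receptor, Rpd3, retromer and ESCRT lists lie to the left. The nucleotide excision repair, autophagy and mitochondrial ribosome lists lie around or above 0.

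Fewer strains were enriched. LOS1, the exporter of tRNA, stood at 3.35 and 3.29, a mean of 3.32 ± 0.04 (adjusted p 2.35e-05). Its features stood at 3.28 and 3.43 on screen 1 but at 2.44 and 4.15 on screen 2, further apart than that SD shows. PAN3 stood at 1.84 and 3.09 and PAN2 at 1.32 and 3.28, which together form a deadenylase that trims poly(A) tails. With CDC36 (0.24 and 2.39, not called on screen 1 alone) they were the 3 higher strains among 7 of deadenylation and decapping, where CAF40 was lower at -1.86 and -2.35. PAN2, too, was not called on screen 1 alone. ARP4, an actin-related protein of chromatin complexes, stood at 2.43 and 2.34.

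The remaining strains among the 10 highest were higher on screen 1 than on screen 2 and were not called on screen 2 alone. They were IES3 of the INO80 remodeller (5.19 and 1.24), SNT1 of the Set3 complex (3.47 and 2.68), SRP14 of the signal recognition particle (2.84 and 2.37), NOP56 of small nucleolar ribonucleoproteins (3.91 and 1.16) and the kinase TOR1 (3.76 and 1.03). Under the pool block SNT1 (adjusted p 0.131) and TOR1 (0.116) were no longer called. Apart from LOS1, PAN3 and TOM1, each of the 10 highest strains was read by 1 feature. Of 23 mitochondrial ribosomal strains 0 were lower and 4 higher, with a median of 0.57. MRPL8 (2.70 and 1.58) and MRPL15 (2.69 and 1.59) were the highest of them, and on screen 2 alone 0 of 25 were called. Several strains near YEL068C had values above 5, such as DLD3 at 5.68 and 5.72, and all 11 higher strains within 100 genes of that locus were left out of the ranking.

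The reference pools were taken out of the comparison through TRM11, NAS6 and PRE9, each of which was screened against the same pair of YEL068C pools, so that the reference cancels in the difference of means. RPN10 minus the mean of these queries gave 224 lower strains (6.25%) and 49 higher strains (1.37%) of 3585. In a fit of those 8 screens alone with the pool as a replicate block, 98 were lower and 7 higher. Strains within 100 genes of YEL068C, RAD23 among them, were left out of the ranking of each contrast. Of the others, RPN13 differed most, with -6.56 in RPN10 and 0.27 over the 3 queries, a difference of -6.84 (adjusted p 1.18e-50, and 0.0013 with the block). TOF1 followed with a difference of -5.40 (-5.41 in RPN10 and -0.01 over the others). PRE3, UBC4, UBP6 and RXT2 were next, with differences between -5.31 and -5.15, and all 6 of these kept their call with the block.

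RAD23, near YEL068C, averaged -6.99 in RPN10 and 0.54 over the 3 queries, a difference of -7.53, larger than that of RPN13. It stood at 2.74 and 1.15 in TRM11 (called higher), at 1.87 and 0.23 in NAS6 (not called) and at -0.81 and -1.93 in PRE9 (called lower). Of the base strains 7 of 8 were lower than over these queries, and 5 of 8 with the block. TOM1 was higher by 3.21 (adjusted p 4.44e-05), which with the block was 0.10. ARP4, higher by 2.15, and SET3, of the Set3 complex and higher by 2.25, kept their call with the block at adjusted p 0.029 and 0.037. LOS1, higher by 2.18, did not (0.056).

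PRE9 encodes the dispensable subunit of the core, so the RPN10 and PRE9 queries set a lost receptor beside an altered core on the same reference pools. In the PRE9 query 241 strains were lower (6.11%) and 113 higher (2.87%). RPN10 minus PRE9 gave 105 lower strains (2.76%) and 50 higher strains (1.31%) of 3810, and in the 8-screen fit with the block 13 and 2. Among core, base and lid, the base had the most strains that differed. RPT4 stood at -5.21 and -2.53 in RPN10 and at 0.04 and 0.02 in PRE9, and RPT5 at -5.61 and -4.85 in RPN10 and at -0.58 and -1.11 in PRE9. For every ATPase of the base both RPN10 values were below both PRE9 values. Of 8 base strains 7 were lower in RPN10 than in PRE9, and 2 with the block or 3 on RPN10 screen 2 alone, against 1 of 9 core strains (1 with the block) and 1 of 8 lid strains (0 with the block).

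RPN13, already counted in the base, and the fork strains also differed between these queries. RPN13 was at 0.19 and 1.18 in PRE9, which gave a difference of -7.25 (adjusted p 3.29e-43, and 0.0061 with the block). TOF1 was at 0.83 and -0.17 in PRE9, a difference of -5.74 (adjusted p 1.72e-30, and 0.0059 with the block). Of 4 fork strains 3 were lower than in PRE9, and 3 of 3 in the fit with the block. Of 14 checkpoint and kinetochore strains 7 were lower than in PRE9, and 1 with the block. Of 16 ESCRT strains 0 were lower and 1 higher in RPN10 than in PRE9, where their median was -3.02, and VPS4 stood at -4.64 and -4.17 there. For PAN2 and PAN3 the differences were 0.43 and 0.36 (adjusted p 0.998 each), and for UBI4 -0.95 (adjusted p 0.55). These p-values do not show that the queries act alike.

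The 6 strains with the highest differences from PRE9 averaged between 0.43 and 1.59 in RPN10 and between -2.92 and -1.28 in PRE9. IRA2, a brake on the Ras and cyclic AMP pathway, stood at 0.32 and 0.54 in RPN10 and at -3.48 and -2.37 in PRE9, a difference of 3.36 (0.022 with the block). PDE2, a cyclic AMP phosphodiesterase, stood at 1.73 and 0.79 in RPN10 and at -2.30 and -1.50 in PRE9, a difference of 3.16 that was not called with the block (0.13).

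Against the mean of the other 11 proteasome queries, 209 strains were lower (5.3%) and 134 higher (3.4%) of 3945. Each strain was averaged over those of these queries in which it was tested, such as 11 for RPN13 but 10 for POC4 and UBP6. Not all of these queries shared the reference pools of RPN10, so the reference does not cancel in this difference. The mean also takes in RPN14, NAS6, ADD66, NAS2 and HUL5, with lower shares of 0.15% to 0.938%. In each of them 0 core, base and lid strains were called. The core median was -4.68 in RPN10, -4.18 in RPN4 and -3.14 in UBP6. A difference from this mean therefore does not set RPN10 apart from each of the queries. RAD23 had a difference of -6.03, and outside the YEL068C region the 6 lowest differences were those of RPN13 (-6.79), TOF1 (-5.37), PRE3 (-4.53), LTE1 (-4.27), POC4 (-4.23) and UBP6 (-4.16). RPN13 was called lower in RPN10 only among these 12 queries, and in 2 of the 137 other queries of the series. RAD23 was lower in RPN4 (-5.91 and -3.67), UBP6 (-2.08 and -2.58), SEM1, PRE9 and POC4 as well, and in 19 of 135 other queries of the series. TOF1 was lower in RPN4 (-1.47 and -1.41) too, and in 6 of 136 other queries. UBC4, in contrast, was low in RPN4, UBP6, SEM1 and POC4 as in RPN10.

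Against the mean of all other queries of the series 323 strains were lower (8.17%) and 130 higher (3.29%). The number of queries in that mean differed by strain, such as 137 for RPN13 and 119 for TOM1. Most arrays behind that mean had the mixed reference, so the reference does not cancel here either. RAD23 had a difference of -6.77. Outside the YEL068C region RPN13, at -6.56 in RPN10 and 0.03 over the others, had the lowest difference (-6.59), and LOS1, at 3.32 in RPN10 and -0.29 over the others, had the highest (3.62).

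The proteasome queries differed widely in how many strains they called. Lower strains made up 14.6% in RPN4, 12% in UBP6, 10.3% in SEM1, 7.49% in POC4, 3.63% in IRC25, 0.938% in RPN14, 0.83% in NAS6, 0.779% in ADD66, 0.75% in NAS2 and 0.15% in HUL5, and 0.459% in the TRM11 query. Higher strains made up 2.82% in RPN4, 0.174% in UBP6, 0.603% in SEM1, 1.21% in POC4, 1.39% in IRC25, 0.831% in RPN14, 0.755% in NAS6, 0.934% in ADD66, 0.563% in NAS2 and 0.025% in HUL5, and 1.53% in TRM11. Counts within a list are read beside these shares. Within the lists, the base median was -3.92 in RPN10, -5.35 in RPN4, -3.52 in UBP6 and -2.36 in SEM1, but -0.74 in POC4 and -0.36 in PRE9. The ESCRT median was -2.53 in RPN10, whereas it was -6.95 in both RPN4 and UBP6, -4.41 in SEM1 and -3.28 in POC4. The fork median was -3.89 in RPN10, against -1.37 in RPN4 and between -0.54 and 0.62 in the other 10 queries. These fork medians do not cover the same strains. Of 17 listed, 5 were tested in RPN10, 8 in RPN4 (5 lower) and 9 in UBP6 (3 lower). The assembly chaperone queries NAS2 and NAS6 and the HUL5 query had base medians between 0.05 and 0.24, and 0 of their base strains were called. In RPN10 8 of 14 checkpoint strains were lower, against 4 of 14 in RPN4 and 0 or 1 in each of the others. Differences between lists were not tested.

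**Figure D5:**
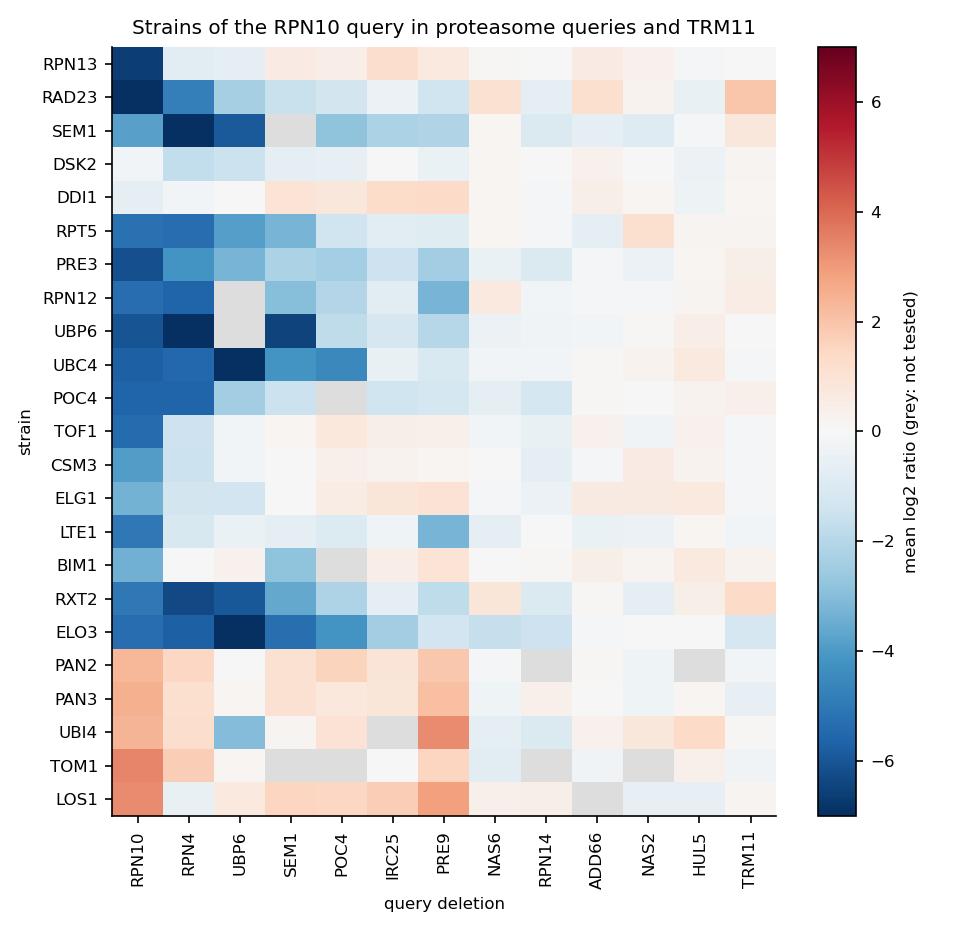
Mean log2 ratio of 23 strains (rows) in the RPN10 query, the other 11 proteasome queries and the TRM11 query (columns), with red above 0, blue below 0, colours that saturate at 7 and grey for pairs not tested. The TOF1, CSM3 and RPN13 rows are dark in the RPN10 column and pale elsewhere, whereas SEM1, UBP6, UBC4 and ELO3 are dark in several columns.

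As a whole profile, RPN10 was most like RPN4 (mean r 0.445), SEM1 (0.418), UBP6 (0.410), NPR3 (0.381) and UBP8 (0.362). These are correlations across strains over pairs of screens with no shared reference pool, and the median over 139 queries was 0.0058. The 2 RPN10 screens had an r of 0.452 over the strains of that comparison. The UBP8 screens are among the 17 arrays whose sign was turned by the linkage rule. Many of the low strains were low in other queries too: the 309 lower strains were lower in a median of 10 other queries, against 1 over all strains, and 160 of them in at least 10. Only 15 were lower in no other query, CDC34 and RAD5 among them.

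The cross was also read in the other direction, from the RPN10 strain in the pools of other queries. Its 2 features had values on 67 and 2 of the 312 arrays, below the presence filter, so the values come from unfiltered features and cover 66 screens. They ran from -1.12 to 5.26 with a median of 1.30, and 60 were above 0. Where a query had 2 such screens, the RPN10 strain was higher in 6 of 12 queries and lower in 0. It stood at 3.77 and 4.92 in TOM1, a mean of 4.34 ± 0.81 (adjusted p 1.88e-05), and averaged 3.01 ± 0.01 in PAN3 and 2.86 ± 0.04 in PAN2 (SD, n = 2 each). The TOM1, PAN2 and PAN3 strains were also higher in the RPN10 query, but the NAS6 strain was not called there, and since the RPN10 strain was above 0 on most screens a shared sign says little. PUS1 (2.92), NAS6 (2.15) and SNR46 (1.80) were the other 3, and under the pool block 3 of 9 queries were higher. In the RPN10 population itself the RPN10 strain had a value on screen 1 only, at 5.26, whereas over 245 screens the strain of the query's own gene had a median of -2.69 and was above 3 on 9.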

How the data were processed

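Genomic DNA barcodes (uptags and downtags amplified by PCR) of each query population and its reference were read on 2-colour arrays, per the labels. The deposited values are log2 ratios as read here; the authors' normalization and centring were not stated. The members and lists were chosen with earlier results of these data known.

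Features with a value on at least 80% of arrays were kept (8632, for 4125 strains), averaged by gene symbol, and arrays were median-centred. Symbols came from GEO's platform annotation; 5098 of 5100 matched the RefSeq R64 table, used only for names and gene order, and 64 were updated. The sign was turned for arrays with a positive median over strains up to 25 genes from the query (17 arrays, neither of RPN10), and strains within 100 genes were left out. Every table column was mapped (0 unmapped).

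One limma fit over 304 screens gave a mean per query and a spread per strain pooled over queries (median residual SD 0.382, 150 residual and 4.82 prior degrees of freedom), adjusted by Benjamini-Hochberg over 547925 strain and query pairs, and for contrasts over their strains. Calls needed adjusted p under 0.05 and size of at least 1. The fit was tested on simulated data with known changes. The simulated noise had the pooled spread of a strain on every screen, so that test does not cover the wider RPN10 screens. The text names the 20 lowest and 10 highest strains past 1 on both screens outside the YEL068C region, members of the proteasome, receptor and Cdc48 lists, called and extreme members of other lists, and 6 strains per direction of each contrast; exceptions are marked. Equal replicate numbers of RPN10, NAS6, PRE9 and TRM11 mark a shared reference pool, per the labels, and their deviations correlated at 0.101 to 0.668 over 3528 strains, so blocked counts stand beside those contrasts. Alternatives covered centring, quantile normalization, feature filters, blocks, windows and left-out screens. The RPN10 strain was below the feature filter and was tested unfiltered. R 4.3.3, limma 3.58.1, pandas 2.3.3, numpy 2.4.6 and matplotlib 3.10.9 were used.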

Additional observations from a re-analysis of the deposited data

Results flagged for a closer look

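The following strains differed between RPN10 and other queries under the same contrast, by the limma test of the difference itself. Against the mean of the other proteasome queries, RPN13 (-6.79), TOF1 (-5.37), PRE3 (-4.53), LTE1 (-4.27), POC4 (-4.23) and UBP6 (-4.16) were lower in RPN10. VPS52 (4.02), IES3 (3.56), TOM1 (3.02), PDE2 (2.78), TOR1 (2.70) and ITR1 (2.68) were higher. Among these, VPS52 had discordant RPN10 screens, at 6.39 and -1.37. The mean took in 10 queries for VPS52, POC4 and UBP6, 9 for IES3, 7 for TOM1 and TOR1 and 11 otherwise. Several of the averaged queries called few strains, such as HUL5 with 0.15% lower.

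Against PRE9, RPN13 (-7.25), TOF1 (-5.74), UBC4 (-4.63), GET1 (-4.62), RPT5 (-4.38) and POC4 (-4.37) were lower in RPN10. ATP14 (4.04), STP1 (3.73), IRA2 (3.36), PDE2 (3.16), SAP190 (3.06) and SAM1 (2.87) were higher. In the 8-screen fit with the shared pool as a block, GET1 (adjusted p 0.07), POC4 (0.082), ATP14 (0.54), STP1 (0.154), PDE2 (0.132) and SAM1 (0.224) were not called. ATP14 had discordant RPN10 screens, at 4.74 and -1.60.

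Outside the named strains, 77 of 1487 features without a gene symbol were past 1 with the same sign on both RPN10 screens (5.18%), 51 of them lower and 26 higher. Among features with a symbol the share was 8.21% (683 of 8320).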

How the results depend on the processing

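Quantile normalization between arrays lowered every count of calls in the 5 comparisons: to 133 lower and 28 higher strains against 0 (82.6% lower, against 72.0%), 55 and 7 against the pool mates, 64 and 15 against the proteasome queries (81.0% lower, against 60.9%), 129 and 33 against all other queries, and 23 and 9 against PRE9. The 2 RPN10 screens alone gave 0 lower and 0 higher calls by limma (487 strains at an unadjusted p under 0.05). Without a minimum size 184 strains were higher. Without centring, array medians stood at 0.085 and 0.166, and 164 strains were higher. With the replicate block of the shared pools in the 8-screen fit, 98 strains were lower and 7 higher against the pool mates, and 13 and 2 against PRE9. With the reference pool as a block over the series, 81 strains were higher than in PRE9, and the RPN10 strain was higher in 3 queries. With the replicate number as a replicate block over the series, 314 strains were lower and 112 higher against 0.

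Leaving out 1 RPN10 screen in turn gave 295 to 344 lower and 106 to 131 higher strains against 0, 220 to 227 lower and 65 to 76 higher against the pool mates, 209 to 215 and 123 to 142 against the proteasome queries, 314 to 386 and 154 to 157 against all other queries, and 91 to 120 and 52 to 72 against PRE9. Of the 309 lower strains against 0, 204 were also lower without screen 1, 220 without screen 2 and 272 under the reference pool block. Of the 120 higher strains, 58, 61 and 67 were also higher under these settings. The sign turned without screen 1 for RPN9 (0.0782 without screen 1, -2.33 without screen 2), UBC1 (0.0311 and -2.87), ATP14 against the pool mates (-0.72 and 5.61) and VPS52 against all other queries (-0.46 and 7.29). The causes were not tested. Having 2 arrays limits the precision.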

Other observations

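Some gene groups were put together after their values were seen and are given as description only. The lists above were chosen with earlier results of these data known. Of 9 strains of Rub1, a ubiquitin-like protein, and its conjugation and removal, 6 were lower and 0 higher, with a median of -1.92. RUB1 itself stood at -5.06 and -3.16, and UBC12, its conjugating enzyme, at -4.25 and -3.06. ULA1 (-4.18 and -2.37) and UBA3 (-4.05 and -2.13), which form its activating enzyme, lay close to them. Against PRE9, 5 of the 9 were lower in RPN10, and 0 of 7 in the 8-screen fit with the pool as a block.

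GET1, which helps to insert tail-anchored proteins into membranes, stood at -5.60 and -3.73, and its partner GET2 had a value on screen 2 only, at -3.60. Of 14 cell wall strains 4 were lower. Of 6 strains of the Set3 deacetylase complex 0 were lower and 2 higher, SNT1 and SET3 (2.78 and 1.72). In all, 95 strains had a value on 1 RPN10 screen only and no test, 65 of them missing on screen 2 and 30 on screen 1, and NHX1, a vacuolar and endosomal exchanger, was at -10.2 on screen 2.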
